A study of Mus musculus with 6 samples.

Results

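The elastic fibre is the extensible element of the artery wall, and its genes were followed in the aortas of mice lacking Apoe alone and of mice lacking Apoe and Adora1. The set was given as 10 gene symbols covering elastin, fibrillin-1, fibulins, lysyl oxidases and microfibril proteins. Of these, 9 have a probe set that names that gene alone (Eln, Fbln1, Fbln2, Fbln5, Lox, Loxl1, Mfap4, Mfap5 and Emilin1), out of 19752 genes on the array that are named alone by a probe set. For each of the 9 there is 1 such probe set, so no choice between probe sets was made. Fbn1, the gene of fibrillin-1, has no such row and is not analysed here.

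An elastic fibre consists of a core of cross-linked elastin laid down on a scaffold of fibrillin microfibrils. Smooth muscle cells secrete the soluble precursor tropoelastin, fibulins and related glycoproteins bring it to the microfibril, and lysyl oxidases oxidise its lysines so that the chains become covalently joined. In the aorta these fibres form the concentric lamellae of the media that store and return the energy of each pulse.

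Aortas of mice on a C57BL/6 background, 20 weeks old, were profiled on 6 whole-transcript arrays. The 3 ApoE-KO samples carry the genotype apoe-/-, and the 3 DKO samples carry apoe-/- adora1-/-, so both groups lack Apoe, the apolipoprotein whose loss makes mice prone to atherosclerosis, and only DKO also lacks Adora1, the adenosine A1 receptor. The series text names the comparison group as Adora1 knockouts, whereas every sample label of that group names Apoe, and groups here follow those labels. No wild-type aorta and no Adora1-only aorta is among the 6, the labels name no treatment, and they do not say what the replicate numbers 1 to 3 share. Adora1 itself is not analysed here. Values are log2 intensities, on which a difference of 1 is a doubling, and they are compared between arrays for the same gene but not between genes, because probe sets differ in brightness.

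The arrays were alike in scale, with medians from 8.01 to 8.02. Markers of contractile smooth muscle were read on every array, for example Acta2, smooth muscle actin, at 13.97 to 14.06 and Myh11, smooth muscle myosin, at 13.23 to 13.61. Both replicate 3 arrays stood apart by lung transcripts: the mean over 10 lung epithelium genes was 9.83 in ApoE-KO replicate 3 and 9.18 in DKO replicate 3, against 6.72 to 6.85 in the other 4 arrays. The differences of the 9 genes and the medians of the gene lists are therefore also given without them. Same-numbered arrays of the 2 groups deviated together from their group means (r = 0.60, 0.50 and 0.64 over all probe sets), so they are treated as pairs 1 to 3, and the fit with the replicate number as a block is given beside the unpaired one. All measurements are of whole tissue, in which fewer cells of a type and less RNA per cell cannot be told apart.

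Upstream sequence is shown for the 3 fibulins, since one of them, Fbln5, had the highest difference of the set and the others, Fbln1 and Fbln2, had differences near 0. RefSeq windows of assembly GRCm38.p6 matched 5 of the 10 symbols, and the 250 bases before the most upstream start are printed 5′ to 3′ on the gene's strand, with the GC box (GGGCGG, or CCGCCC on the other strand) and the SMAD box (CAGAC, or GTCTG on the other strand) in capitals.
Fbln5 (chr12:101819120-101819369, minus strand): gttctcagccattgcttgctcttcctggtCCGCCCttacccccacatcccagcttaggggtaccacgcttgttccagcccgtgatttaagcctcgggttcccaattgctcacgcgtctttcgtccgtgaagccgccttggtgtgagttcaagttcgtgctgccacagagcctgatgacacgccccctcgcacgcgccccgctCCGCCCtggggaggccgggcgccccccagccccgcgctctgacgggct
Fbln1 (chr15:85205699-85205948, plus strand): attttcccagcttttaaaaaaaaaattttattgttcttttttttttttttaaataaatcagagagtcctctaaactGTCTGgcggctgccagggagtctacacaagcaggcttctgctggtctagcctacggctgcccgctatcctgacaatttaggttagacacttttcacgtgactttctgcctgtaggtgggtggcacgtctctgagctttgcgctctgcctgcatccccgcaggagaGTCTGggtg
Fbln2 (chr6:91212514-91212763, plus strand): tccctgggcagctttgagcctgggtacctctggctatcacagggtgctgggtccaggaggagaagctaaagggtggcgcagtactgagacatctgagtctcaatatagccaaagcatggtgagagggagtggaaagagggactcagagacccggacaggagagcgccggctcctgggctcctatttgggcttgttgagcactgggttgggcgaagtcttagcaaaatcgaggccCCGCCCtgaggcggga

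The Fbln5 window holds 2 GC boxes, beginning 221 and 48 bases before the start, and no SMAD box. The Fbln1 window holds 2 SMAD boxes, at 174 and 9 bases, and no GC box, and the Fbln2 window holds 1 GC box at 16 bases. These short motifs do not overlap each other and are common: among all 32851 windows of 250 bases, 32.7% hold a GC box and 42.2% a SMAD box. The TATA box (TATAAA, either strand; 12.4% of windows) and the CArG box, the binding sequence of serum response factor (1.47% of windows), were not found in these 3 windows. G and C made up 65.2% of the Fbln5 window, 46.4% of the Fbln1 window and 58.8% of the Fbln2 window. A match of letters is a description and says nothing about whether a factor binds there.

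Across the 9 genes, 7 read higher in DKO and 2 read lower, with a median difference of 0.10 (log2; DKO minus ApoE-KO), where the median over all 19752 genes was -0.0027. None passed the test: limma across the whole table called 0 of 25254 probe sets (0.0%) at an adjusted p of 0.05, and the set therefore holds 0 calls. At an unadjusted p under 0.05 stood 2 of the 9, Fbln5 and Mfap4, against 1419 probe sets in all (5.62%). With the replicate block 44 probe sets passed (0.174%), again without a member, while 3 of the 9, Fbln5, Mfap4 and Lox, had an unadjusted p under 0.05 against 16.2% of probe sets. The unmoderated linear model passed 1 probe set of the whole table and none of the 9. The groups did not overlap in 2 of the 9, both higher in DKO, where 5.55% of probe sets were higher without overlap. In 4 of the 9 every pair was higher in DKO, against 21.2% of probe sets. An exact permutation test of 3 against 3 arrays cannot go below 0.1.

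**Figure D1:**
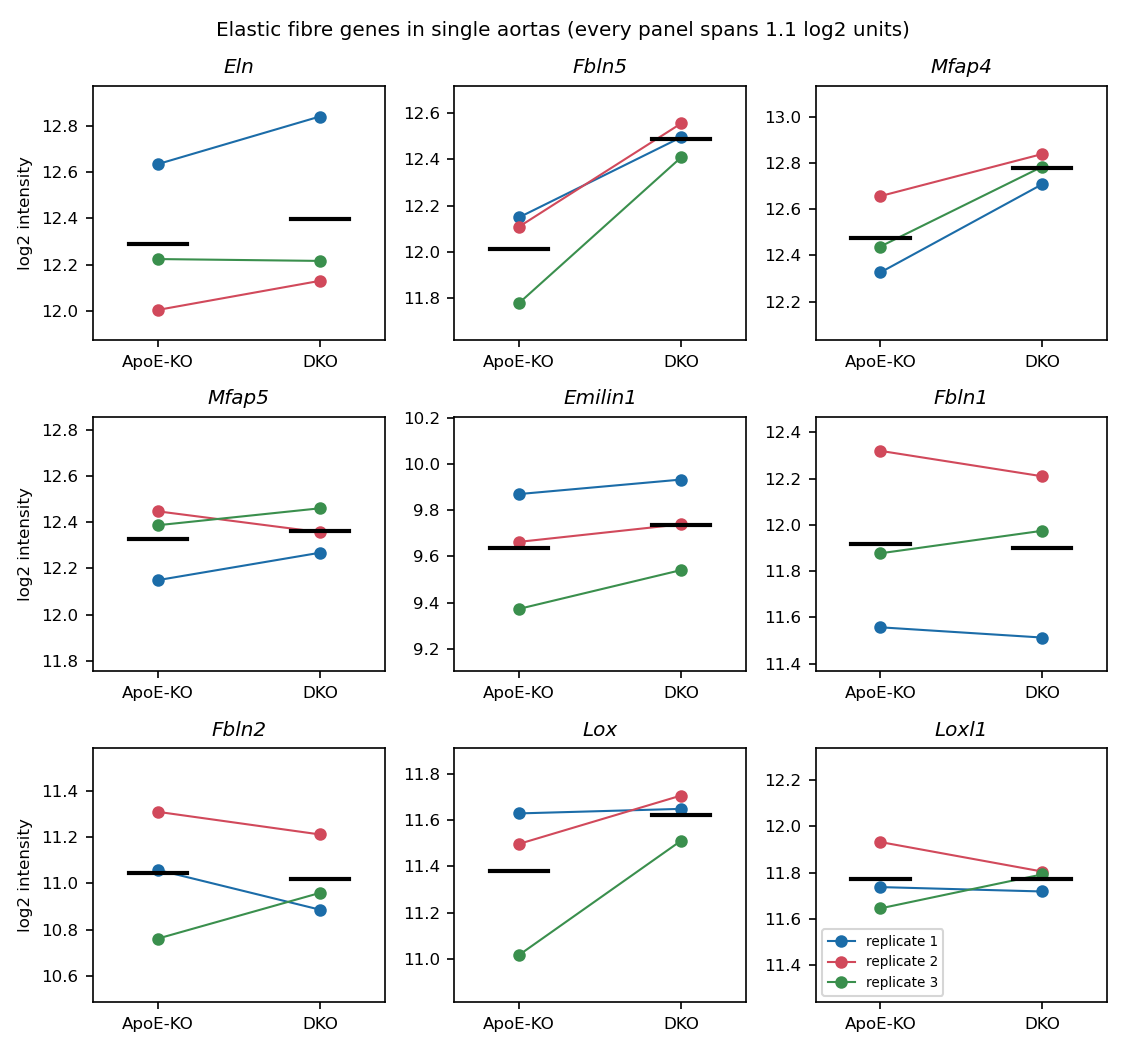
Log2 intensity of the 9 genes on each array, ApoE-KO at the left and DKO at the right of every panel. Points of the same replicate number are joined and black bars are group means (n = 3 arrays). Every panel spans the same range, and the DKO points lie wholly above the ApoE-KO points only for Fbln5 and Mfap4.

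Eln encodes tropoelastin, the monomer of the elastin core. It read 12.64, 12.005 and 12.22 in ApoE-KO replicates 1 to 3 and 12.84, 12.13 and 12.22 in those of DKO. Replicate 1 was the highest array of each group and the groups overlapped throughout. The group means were 12.29 ± 0.32 and 12.40 ± 0.39 (SD, n = 3 each), a difference of 0.11 (95% interval -0.42 to 0.64; limma, adjusted p = 0.957). The pairs stood at 0.21, 0.13 and -0.008, and with the replicate block the interval narrowed to -0.027 to 0.24 (adjusted p = 0.395). Most of the spread of Eln lay between replicate numbers, which held 94.4% of its squared deviations over the 6 arrays and genotype 3.33%. A difference in Eln larger than the spread between replicates was not found.

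Fbln5 encodes fibulin-5, a secreted glycoprotein that binds tropoelastin, lysyl oxidase-like enzymes and cell-surface integrins and is needed for normal elastic fibre assembly in mice. Its levels were 12.15, 12.11 and 11.78 in the ApoE-KO arrays and 12.50, 12.56 and 12.41 in the DKO arrays. All DKO arrays lay above all ApoE-KO arrays, and ApoE-KO replicate 3 was the lowest of the 6. The means of 12.01 ± 0.20 and 12.49 ± 0.07 (SD, n = 3 each) differed by 0.47 (95% interval 0.21 to 0.73), a ratio of 1.39 (1.16 to 1.66). This was the highest difference among the 9 genes and lay at the 99.5th percentile of all 19752.

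The Fbln5 difference did not pass in the fit over all probe sets (limma, adjusted p = 0.839), nor with the replicate block, where its adjusted p was 0.0517. Each pair was higher in DKO, by 0.35, 0.45 and 0.63. The highest pair was number 3, whose arrays carry the lung transcripts, and without both replicate 3 arrays the difference was 0.40 (replicate block, adjusted p = 0.1). Without pair 1 it was 0.54 and passed with the block (adjusted p = 0.0178), in a fit that called 415 probe sets from 2 pairs. Without pair 2 it was 0.49 and did not pass (adjusted p = 0.363), nor did it in the unmoderated model with the block (adjusted p = 0.449). Of its squared deviations 78.3% lay between genotypes, the highest share in the set.

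Mfap4 encodes microfibril-associated protein 4, a fibrinogen-domain glycoprotein that binds elastin and fibrillin at the fibre surface. It read 12.33, 12.66 and 12.44 in the ApoE-KO arrays and 12.71, 12.84 and 12.78 in the DKO arrays. The groups did not overlap, though DKO replicate 1 exceeded ApoE-KO replicate 2 only narrowly. The means of 12.47 ± 0.17 and 12.78 ± 0.07 (SD, n = 3 each) differed by 0.30 (95% interval 0.08 to 0.53; limma, adjusted p = 0.861, and 0.0866 with the replicate block). The pairs were 0.38, 0.18 and 0.35, and without both replicate 3 arrays the difference was 0.28. Genotype held 67.9% of the squared deviations and the replicate number 26.5%.

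Emilin1 encodes elastin microfibril interfacer 1, which sits between the elastin core and the microfibrils. Its arrays had the same order by replicate number in each group, at 9.87, 9.66 and 9.37 in the ApoE-KO arrays and 9.93, 9.74 and 9.54 in the DKO arrays. The groups overlapped, yet each DKO array exceeded its ApoE-KO partner, by 0.06, 0.08 and 0.17. The mean difference of 0.10 (95% interval -0.26 to 0.47) did not pass unpaired or with the block (limma, adjusted p = 0.948 and 0.432). Replicate number held 91.3% of its squared deviations.

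Mfap5 encodes MAGP-2, a small protein that decorates fibrillin microfibrils and is abundant in adventitial fibroblasts. It read 12.15, 12.45 and 12.39 in the ApoE-KO arrays and 12.27, 12.36 and 12.46 in the DKO arrays. The groups overlapped, with replicate 1 the lowest array of each. The pairs disagreed in sign, at 0.12, -0.09 and 0.07, and the mean difference was 0.03 (95% interval -0.20 to 0.27; limma, adjusted p = 0.974, and 0.812 with the block).

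**Figure D2:**
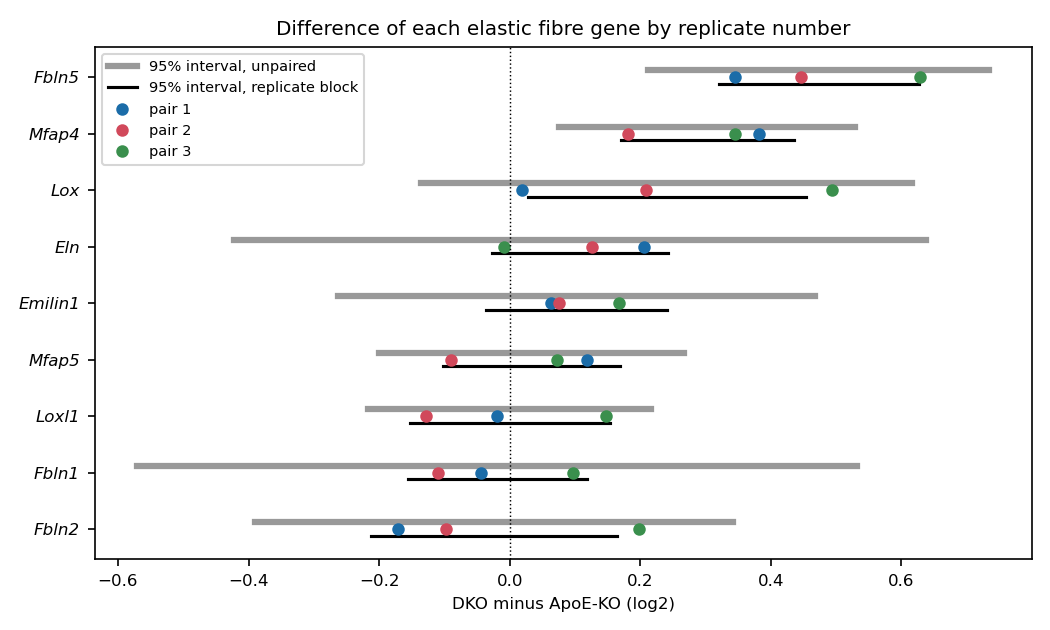
DKO minus ApoE-KO (log2) for the 9 genes: points are the 3 same-numbered pairs, grey bars the 95% intervals of the unpaired limma fit and black bars those with the replicate block. Every pair lies above 0 for Fbln5, Mfap4, Lox and Emilin1, and the intervals are not adjusted for the number of genes.

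The other fibulins of the set, Fbln1 and Fbln2, had mean differences of -0.019 and -0.024. Fbln1, whose product fibulin-1 lies in elastic fibres and basement membranes, read 11.56, 12.32 and 11.88 in the ApoE-KO arrays and 11.51, 12.21 and 11.97 in the DKO arrays. Replicate 2 was the highest and replicate 1 the lowest in each group, a gap larger than that between the genotypes in any pair. The means of 11.92 ± 0.38 and 11.90 ± 0.35 (SD, n = 3 each) differed by -0.019 (95% interval -0.57 to 0.53; limma, adjusted p = 0.995). With the block the interval was -0.16 to 0.12 (adjusted p = 0.903), and replicate number held 97.8% of the squared deviations.

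Fbln2, the gene of fibulin-2, which lies at the border of elastic fibres and in the intima, read 11.06, 11.31 and 10.76 in the ApoE-KO arrays and 10.89, 11.21 and 10.96 in the DKO arrays. Replicate 2 was again the highest of each group and the groups overlapped. The pairs stood at -0.17, -0.10 and 0.20, with a mean difference of -0.024 (95% interval -0.39 to 0.34; limma, adjusted p = 0.992, and 0.911 with the block). The positive pair was the one with lung transcripts, and without both replicate 3 arrays the difference was -0.13. Whether the Fbln5 difference exceeded those of Fbln1 and Fbln2 was not tested.

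Lox and Loxl1 encode lysyl oxidase and a relative of it, copper enzymes that start the cross-linking of elastin and collagen. Lox read 11.63, 11.50 and 11.02 in the ApoE-KO arrays and 11.65, 11.71 and 11.51 in the DKO arrays. ApoE-KO replicate 3 was far below the other 5 arrays, which lay within 11.50 to 11.71 and overlapped. The mean difference was 0.24 (95% interval -0.14 to 0.62; limma, adjusted p = 0.871, and 0.263 with the block), and the pairs stood at 0.02, 0.21 and 0.49. Without ApoE-KO replicate 3 the Lox difference was 0.059, and without both replicate 3 arrays it was 0.11. Loxl1 read 11.74, 11.93 and 11.65 in the ApoE-KO arrays and 11.72, 11.81 and 11.79 in the DKO arrays. The Loxl1 means were equal to within 0.00013 (95% interval -0.22 to 0.22; limma, adjusted p = 1.0), with pairs at -0.019, -0.13 and 0.15.

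**Figure D3:**
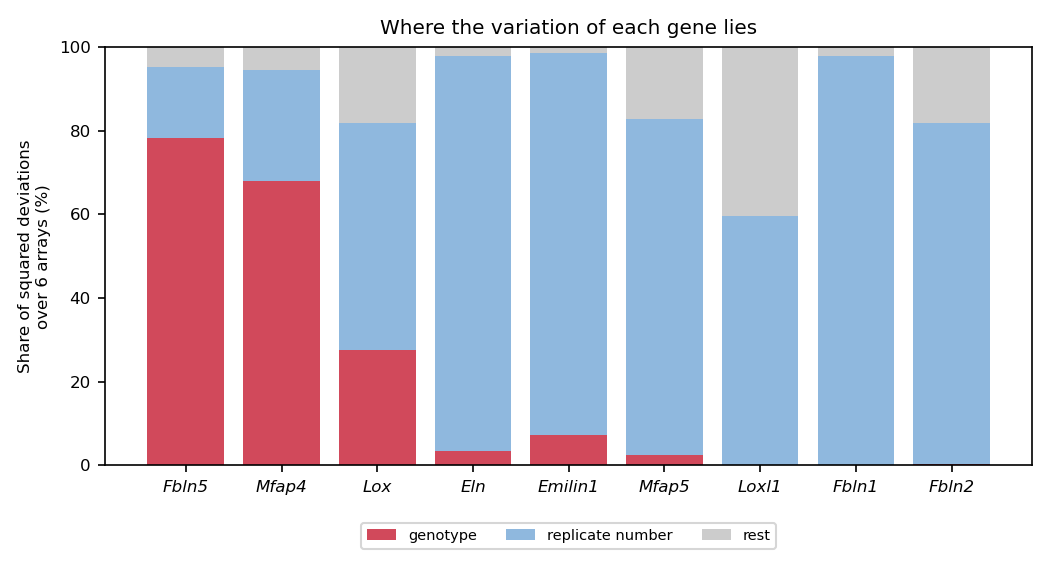
Share (%) of each gene's squared deviations over the 6 arrays that lies between genotypes, between replicate numbers and in the rest. Genotype takes 78.3% for Fbln5 and 67.9% for Mfap4, and replicate number takes 54.3% to 97.8% for the other 7 genes.

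Most of the variation of the set followed the replicate number. In 7 of the 9 genes replicate number held the largest share, with a median over the 9 of 80.3% for replicate number and 3.33% for genotype. Over all 19752 genes the medians were 55.2% and 14.2%. The direction of the replicate effect differed from gene to gene: Eln and Emilin1 were highest in the replicate 1 arrays, and Fbln1 and Fbln2 in the replicate 2 arrays. ApoE-KO replicate 3 held the lowest reading of 5 of the 9 genes (Fbln2, Fbln5, Lox, Loxl1 and Emilin1), with a median deviation of -0.19 from each gene's own mean. Medians in the other 5 arrays ran from -0.034 to 0.18. Without both replicate 3 arrays the median difference of the 9 genes was 0.069, against 0.10 with them, and 0 passed. The differences not given above were then 0.17 for Eln, 0.069 for Emilin1, 0.014 for Mfap5, -0.077 for Fbln1 and -0.073 for Loxl1, so that 6 of the 9 read higher and 3 lower.

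**Figure D4:**
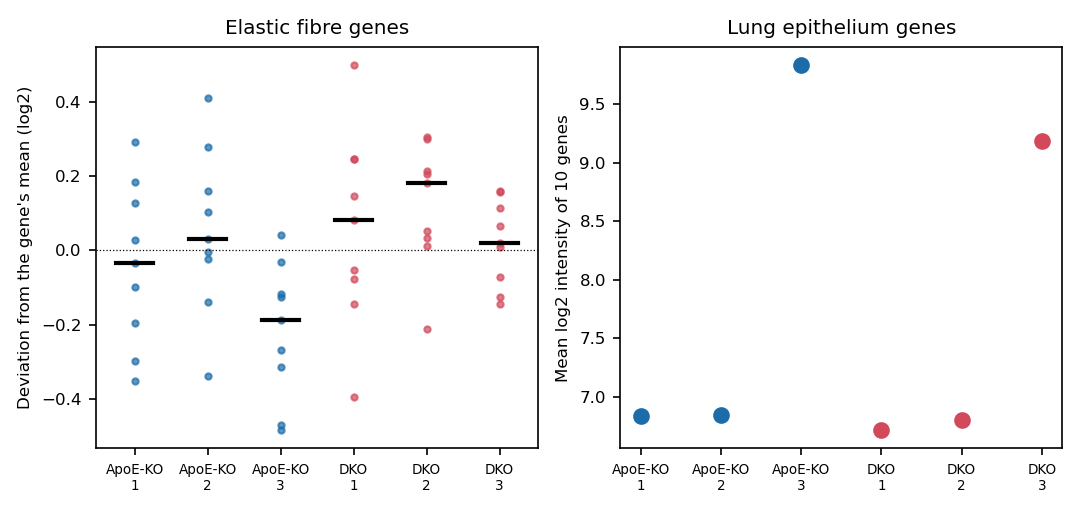
Left, deviation of each of the 9 elastic fibre genes from its own mean over the 6 arrays (log2; points are genes, black bars medians); right, mean log2 intensity of 10 lung epithelium genes per array. ApoE-KO replicate 3 has the lowest median deviation (-0.19) and the highest lung mean (9.83). DKO replicate 3, next in lung mean (9.18), has a median deviation of 0.021.

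Markers of the cells that make or surround elastic fibres were read beside the set. The mean over 11 contractile smooth muscle genes ran from 12.23 to 12.45 in ApoE-KO and from 12.36 to 12.50 in DKO, with 9 of 11 higher in DKO, a median difference of 0.10 and 2 higher without overlap, against 5.55% of probe sets. Over 11 adventitial fibroblast genes the means ran from 11.76 to 12.07 and from 11.65 to 11.96, with 7 of 11 lower in DKO and a median of -0.11. Over 9 endothelial genes they ran from 10.01 to 10.55 and from 10.14 to 10.52. No gene of these 3 lists passed, with or without the block.

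Mesothelial markers separated the groups in the same sense as Fbln5 and Mfap4. The mean over 8 of them ran from 7.49 to 7.87 in ApoE-KO and from 8.04 to 8.48 in DKO, all 8 read higher in DKO, 6 without overlap (5.55% of probe sets), and Upk1b and Lrrn4 passed with the replicate block (0.174% of probe sets). Over 10 lung genes the range was 6.84 to 9.83 in ApoE-KO and 6.72 to 9.18 in DKO, and over 8 skeletal muscle genes 7.42 to 8.31 and 7.36 to 7.99. Over 8 white fat genes it was 9.80 to 10.52 and 9.35 to 10.13, with 7 of 8 lower in DKO and Retn and Cidec passing with the block, though no probe set passed with the block without pair 2; over 8 macrophage genes 9.49 to 9.73 and 8.96 to 9.99, and over 8 cartilage genes 7.80 to 7.93 and 7.87 to 8.05. Without both replicate 3 arrays the median differences were 0.086 for smooth muscle, -0.16 for fibroblast, 0.12 for endothelial, 0.69 for mesothelial, -0.25 for white fat, -0.17 for macrophage, 0.031 for cartilage, -0.090 for lung and -0.045 for skeletal muscle genes. With them they were 0.098, -0.11, 0.11, 0.59, -0.33, -0.027, 0.062, -0.25 and -0.15, so the median of each list kept its sign. The medians of the 3 pairs disagreed in sign for macrophage (-0.64, 0.30 and 0.20), fibroblast, cartilage and skeletal muscle genes. Of the 8 macrophage genes 4 read higher and 4 lower in DKO, and DKO replicate 1 had their lowest mean (8.96). The part of these cells in the values of the 9 genes was not tested.

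A wider list of genes of elastic fibre assembly and related genes held 36 symbols, of which 32 have a probe set of their own. Efemp2, Loxl2 and Mfap1a have none and were not read, and Thsd4 was also listed under its older name Adamtsl6. Of the 32, 17 read higher and 15 lower in DKO, with a median difference of 0.045, and 0 passed with or without the block. At an unadjusted p under 0.05 stood 5 of them without the block, against 5.62% of probe sets, and 16 with it, against 16.2%. Without both replicate 3 arrays the median was 0.0034, with 16 higher and 16 lower. The smallest p belonged to Adamts6, a metalloprotease related to the microfibril-binding Adamts10, at 8.79, 9.07 and 9.23 in the ApoE-KO arrays and 9.56, 9.60 and 9.47 in the DKO arrays. Every DKO array exceeded every ApoE-KO array, a difference of 0.51 (95% interval 0.22 to 0.80; limma, adjusted p = 0.839, and 0.0988 with the block). Vtn, the plasma adhesion protein vitronectin, followed with -0.24 (limma, adjusted p = 0.861). It read only 6.77 to 7.25 on the 6 arrays, below the array medians of 8.01 to 8.02. Next was Mmrn2, an endothelial matrix protein of the emilin family, with 0.37 (limma, adjusted p = 0.861, and 0.0585 with the block). Adamts10 itself read lower in DKO in every pair, with a difference of -0.24 (limma, adjusted p = 0.928, and 0.185 with the block).

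The groups did not overlap in 7 of the 32. Of these, chosen after their values were seen, Adamts6, Clu and Atp7a were higher in DKO, and Vtn, Adamtsl4, Adamtsl3 and Loxl3 were lower, against 5.55% and 6.47% of probe sets. Clu encodes the extracellular chaperone clusterin and differed by 0.25, and Atp7a, the transporter that supplies copper to lysyl oxidases, by 0.08. Among the relatives of the 9 genes, Efemp1, the gene of fibulin-3, differed by 0.34 with overlap of the groups and was higher in DKO in every pair (0.22, 0.37 and 0.41; with the block 0.20 to 0.48, limma, adjusted p = 0.0827). Mmrn2 of the emilin family, given above, differed by more (0.37) and was also higher in every pair. Fbln7 differed by -0.14, Emilin2 by -0.32, Emilin3 by -0.17, Loxl3 by -0.12 and Loxl4 by 0.04. Mfap2, which encodes MAGP-1, differed by 0.20 and Mfap3 by 0.14. The latent TGF-beta binding protein genes read higher in DKO in 4 of 4, from 0.05 for Ltbp4 to 0.21 for Ltbp1. Over the whole array 9705 of 19752 genes read higher. In pair 1 Ltbp2 was lower in DKO (-0.046). None of these passed, and these relatives are named by family, with their values known.

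**Figure D5:**
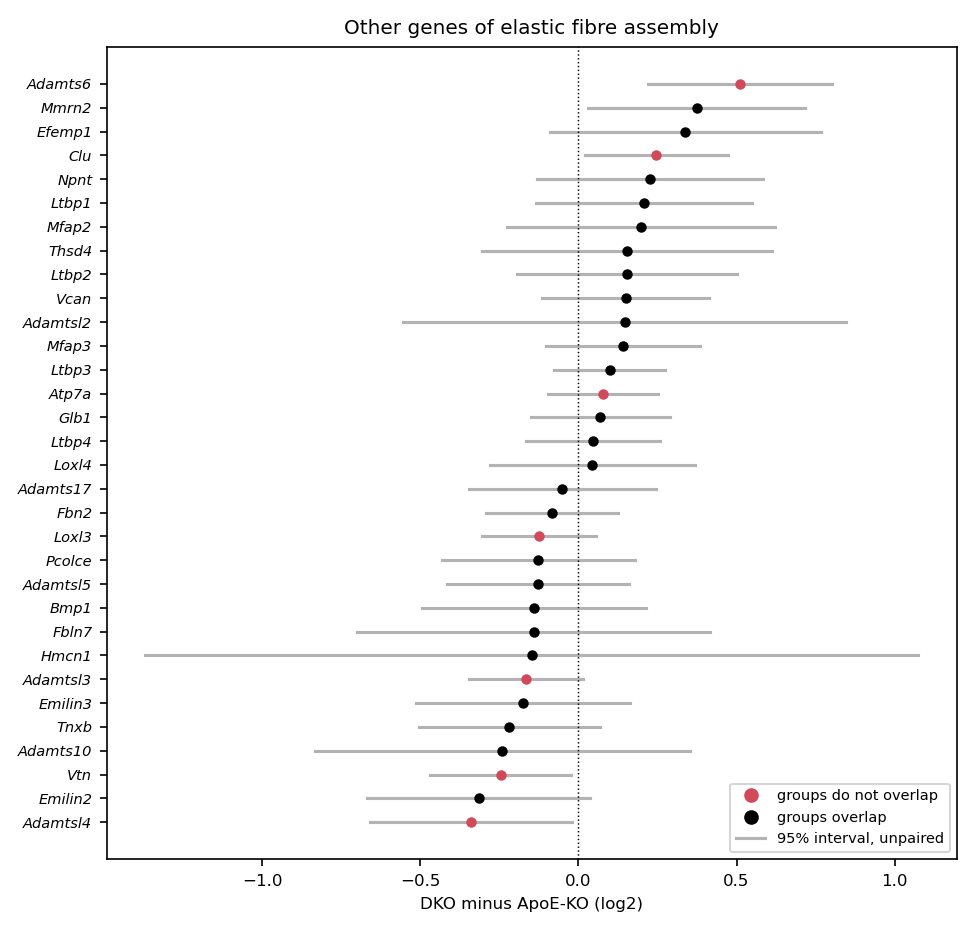
DKO minus ApoE-KO (log2) for the 32 measured genes of the wider list of elastic fibre assembly and related genes, with 95% intervals of the unpaired limma fit. Red points mark genes whose groups do not overlap. Differences run from -0.34 for Adamtsl4 to 0.51 for Adamts6, with 17 above and 15 below 0.

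Enzymes able to cleave elastin were read on 12 probe sets of 12 listed, and 0 passed with or without the block. They split 7 higher and 5 lower in DKO, with a median difference of 0.029, no gene at an unadjusted p under 0.05 in the unpaired fit and none without overlap. Mmp7, Elane, Prtn3 and Cela1 read only 6.63 to 7.40, below the array medians of 8.01 to 8.02. The lowest differences were -0.52 for Mmp12 (pairs -2.01, 0.55 and -0.10) and -0.29 for Ctss (pairs -1.41, 0.37 and 0.16). The smallest p belonged to Ctsk, cathepsin K, with a difference of 0.22 (95% interval -0.12 to 0.57), Ctsb, cathepsin B, with 0.15 (-0.08 to 0.38), and Mmp9, gelatinase B, with 0.20 (-0.16 to 0.56). The unpaired intervals of all 3 span 0. With the replicate block the interval of Ctsk still did (-0.094 to 0.54), and those of Ctsb (0.0032 to 0.29) and Mmp9 (0.011 to 0.39) did not, with adjusted p of 0.453, 0.298 and 0.285 (limma). At an unadjusted p under 0.05 with the block stood 2 of the 12, against 16.2% of probe sets. Without both replicate 3 arrays the median of the 12 was 0.0024, with 6 higher and 6 lower.

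The genes whose levels ran most like those of Eln over the 6 arrays, by Pearson r among the 967 genes that varied at least as much, were Churc1, Cd63 and Jph2 (r = 0.99 for each). Like Eln, each was highest in the replicate 1 arrays of its group. Those most like Fbln5, among 1357 genes, were Cspg4b, Olfml2a and Tmtc2 (r = 0.98, 0.96 and 0.95), and each of these read higher in every DKO array than in any ApoE-KO array. They were picked for their r from many genes on 6 shared arrays, so the values are a description.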

How the data were processed

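The values are log2 intensities per probe set that the authors deposited as 1 table of 25254 rows and 6 arrays. RMA and Partek, without versions, and build mm9 stand in the submitters' processing notes, and removal of a batch effect is not given in the sources used. The platform annotation gives 21496 of them exactly 1 gene, and per gene the one with the highest mean was kept. Of these, 21415 matched a RefSeq gene table (GRCm38.p6) by Entrez identifier, and 0 symbols changed. All probe sets were fitted with limma 3.58.1 in R 4.3.3 (lmFit and trended eBayes) for the contrast DKO minus ApoE-KO, two-sided, with Benjamini-Hochberg adjustment over all probe sets at 0.05 and no filter on low values. The script was tested on simulated data. The replicate number entered as a block in a second fit, since same-numbered arrays correlated at 0.60, 0.50 and 0.64 in their deviations; the pairing comes from the data, and no label states it. The series text describes a model with array batch as a second factor, but no label names a batch. The labels do not say whether each array is a separate mouse beyond the series text's 3 mice per group, so p-values measure the spread between these arrays, and their number limits the precision.

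The genes, lists and naming rule were chosen with earlier results of these data known. The rule names all members, for the wider pathway and the elastin-cleaving enzymes the 3 genes each with the smallest unadjusted p and any called gene, and for Eln and the member with the smallest p the 3 genes with the highest r. Cell type lists are given by ranges, with their called markers and Acta2 and Myh11 named. Other genes of the wider pathway and of the elastin-cleaving enzymes were named outside the rule, with their values known. The list medians without replicate 3 were added after seeing the data. Squared deviations over the 6 arrays were split into genotype, replicate number and rest. Alternatives were the block, unmoderated models, eBayes without trend or robust, array weights, a filter at the 40th percentile, quantile normalization, median centring, probe sets naming 1 gene, and arrays or pairs left out.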

Additional observations from a re-analysis of the deposited data

How the results depend on the processing

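Of 20 alternatives, 19 left the count of called elastic fibre genes at 0. The exception was the replicate block without pair 1, which called 1, Fbln5 (0.54). Over the whole table the count of called probe sets was 0 in the unpaired limma fit, 44 with the replicate block, 1 with the unmoderated linear model, and 415 and 48 with the block but without pair 1 or pair 3. It was 0 with the block but without pair 2, and 0 with the unmoderated model and block. Leaving out 1 array gave 0 to 8 called probe sets, the 8 without DKO replicate 3, and a median elastic fibre difference from 0.059 to 0.22, with 0.22 when ApoE-KO replicate 1 and 0.20 when DKO replicate 3 was left out.

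Fbln5, Mfap4 and Lox read higher in DKO under all 20 alternatives (0.36 to 0.54, 0.23 to 0.39 and 0.059 to 0.36). Alternatives that change only the error term or the probe sets fitted, such as the block, leave each difference as it was. The count of 20 therefore overstates the support for a direction. The other genes of the set changed sign under some alternatives, never with a call. With 1 array left out, differences ran from -0.11 to 0.28 for Eln, -0.20 to 0.18 for Fbln1, -0.16 to 0.11 for Fbln2, -0.063 to 0.080 for Loxl1, -0.055 to 0.093 for Mfap5 and -0.029 to 0.22 for Emilin1; each such fit breaks a pair and mixes in what its arrays share. Loxl1 turned to -0.024 with array weights, -0.058 after quantile normalization and -0.073 without both replicate 3 arrays, with or without the block. With the block, Fbln2 turned to 0.050 and Mfap5 to -0.0085 without pair 1, and Fbln1 to 0.027 and Fbln2 to 0.013 without pair 2. The cause was not tested. Among the 9 genes the block alone, with all 3 pairs, changed no call; over the whole table it changed 44. A choice of the dimmer probe set was not run, since each gene has 1.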
